A study of Saccharomyces cerevisiae with 17 samples.

Results

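The genes for mitochondrial protein import and mitochondrial chaperones were 35 of the 5449 Saccharomyces cerevisiae genes compared on the array. They were taken by name alone: an annotated symbol made of TIM or TOM and a number, or one of MIA40, PAM16, PAM17, PAM18, SAM35, SAM37, SAM50, SSC1, MDJ1, MGE1, HSP60 and HSP10. No measured value entered the choice. Of the 35, 33 code for proteins of import or folding, and 2 carry such a name but another role: TOM1, a ubiquitin ligase, and TIM11, a subunit of the ATP synthase dimer. Averaged over all arrays, each of the 35 lay above the background bound, the level that 95% of the Schizosaccharomyces pombe probe sets on the same arrays stayed under.

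Most mitochondrial proteins are made in the cytosol as precursors. The TOM complex of the outer membrane, with its receptors and its pore, takes them in. From there the SAM complex inserts barrel-shaped outer membrane proteins, the small TIM chaperones escort water-averse precursors across the intermembrane space, MIA40 traps cysteine-rich proteins by oxidation, TIM22 inserts carrier proteins into the inner membrane, and TIM23 passes precursors with a presequence to the matrix. There the Hsp70 protein Ssc1 with its partners pulls them in, and Hsp60 with Hsp10 helps them fold. In fermenting yeast, where respiration is low, mitochondria are still needed for steps such as iron-sulfur cluster and amino acid synthesis, so the import machinery is used throughout.

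RNA was measured in a pair of commercial wine strains, VIN13 and BM45, fermenting Colombar grape must with little oxygen, and the question was how expression differs between strains and growth phases. VIN13 had 3 arrays on each of day 2 (exponential growth), day 5 (early stationary phase) and day 14 (late stationary phase). BM45 had 2 arrays on day 2 and 3 each on days 5 and 14. The labels name no further genotype or treatment, and they do not say that the arrays of a group came from separate fermentations, so the p-values reflect the spread among these arrays and nothing wider. RNA of whole cultures was measured, so fewer cells of one state and less RNA per cell cannot be told apart.

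Levels are log2(intensity + 16). Changes are differences of such group means ± standard error, later day minus earlier day or VIN13 minus BM45, so folds of dim genes are understated. A gene was called, and is said to have risen or fallen, where limma gave an adjusted p under 0.05 over all 5449 genes. Shares of all genes called were counted for this fit only. Counts of the 35 genes with arrays left out, rescaled or fitted otherwise therefore have no background beside them. The few arrays per group limit the precision of every value. The median gene had an intensity of 866.6 to 1150.4 on the single arrays. The ratio of 3' to 5' signal of the ACT1 control, which is higher where RNA is broken or copied short, averaged 3.42 ± 1.96, 2.07 ± 0.688 and 1.97 ± 0.375 in VIN13 on days 2, 5 and 14 (SD, n = 3 each). In BM45 it averaged 3.81 ± 2.15 on day 2 (SD, n = 2), 1.52 ± 0.087 on day 5 and 1.43 ± 0.033 on day 14 (SD, n = 3 each). It was 5.55, 2.86 and 2.37 in VIN13 on day 2 (replicate 1), day 5 (replicate 3) and day 14 (replicate 3), and 5.33 in BM45 on day 2 (replicate 4). These 4 arrays were doubted in earlier work on these data, and results are also given without them. Leaving them out also alters the spread estimated from the rest, so a smaller adjusted p without them is no added support. Without them, or without either of its own arrays, BM45 day 2 keeps 1 array, and its spread is taken from the other groups. Adjusted p-values and counts of calls on BM45 day 2 from such fits rest on that borrowed spread. Over all genes, the deviations of the 4 arrays from their group means correlated at 0.30 to 0.57 in the 6 pairs among them. In 69 pairs of the other arrays from different groups they correlated at -0.44 to 0.64 (median 0.09). The 4 were chosen with earlier results of these data known, so these correlations are no separate evidence about them. VIN13 day 2 replicate 3, which was kept, had a higher ratio than 2 of the 4. The 35 genes had a median SD of 0.05 between the 3 BM45 day 14 arrays and of 0.23 between the 2 BM45 day 2 arrays. The summed intensity of 8 spore genes ranged from 6841.2 to 11390.0 over the arrays. That of 6 stationary phase genes ranged from 41305.4 to 48192.1 on the later days and from 27510.6 to 37031.8 on day 2. Their part in the results was not tested.

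**Figure D1:**
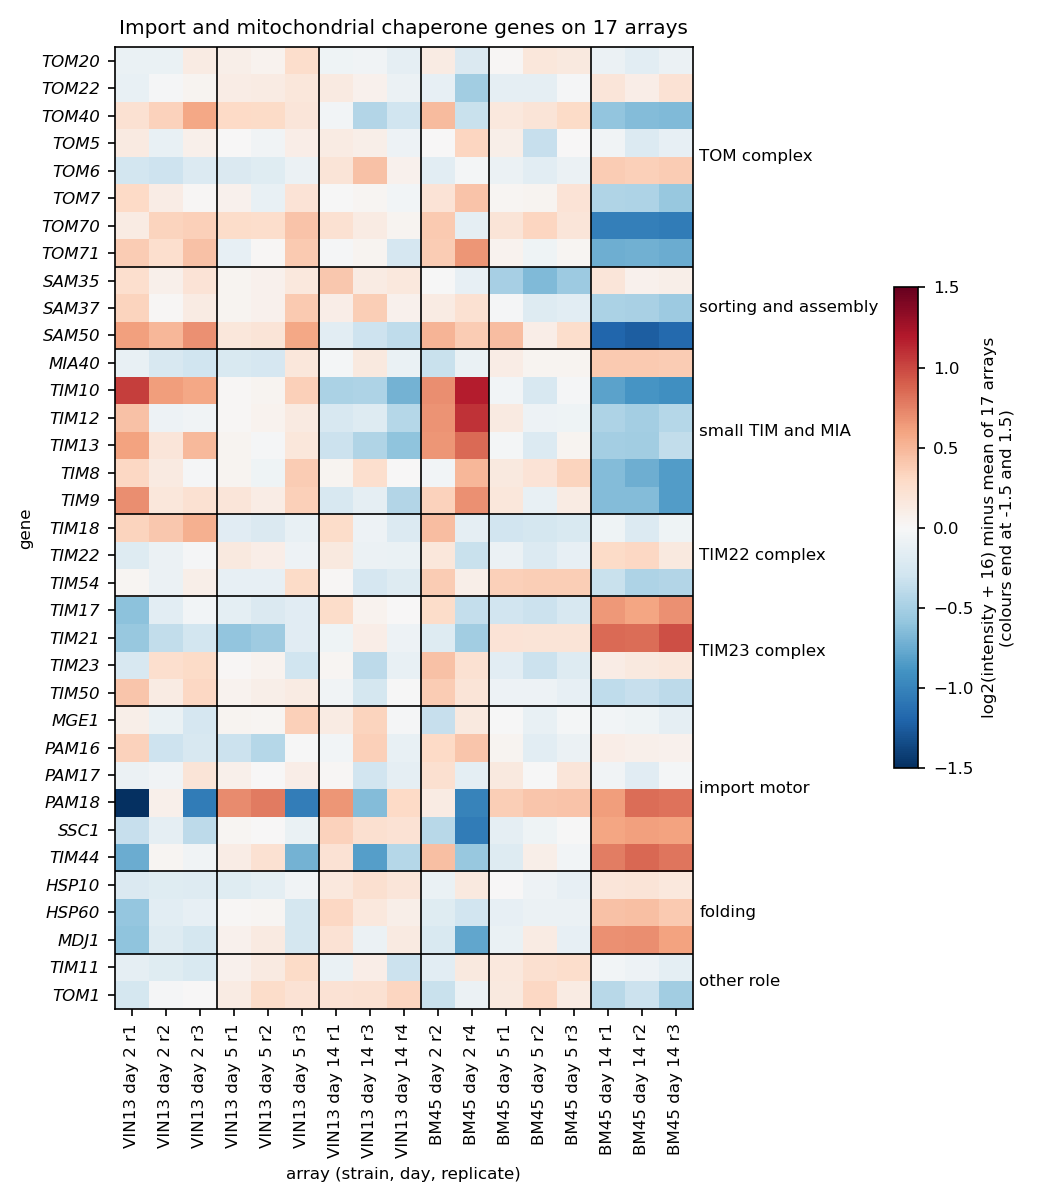
Each row is 1 of the 35 genes and each column 1 of the 17 arrays. Colour gives log2(intensity + 16) minus the gene's mean over the 17 arrays, and lines separate groups and roles. The 3 BM45 day 14 columns hold low TOM70, TOM71, SAM50 and small TIM genes and high TIM17, TIM21, SSC1, TIM44 and HSP60.

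Between days 5 and 14 fewer genes were called in VIN13 than in BM45, among the 35 and among all genes. The late changes of the strains were called as different for 9 of the 35, where 34.2% of all genes were. In VIN13 9 of the 35 genes were called, 3 higher and 6 lower on day 14, where 43.5% of all genes were called, 19.0% higher and 24.5% lower. In BM45 28 were called, 13 higher and 15 lower, where 67.1% of all genes were called, 23.9% higher and 43.1% lower. The arrays of the 2 days did not overlap for 15 of the 35 genes in VIN13, beside 55.0% of all genes. In BM45 they did not overlap for 33 of the 35, beside 84.6% of all genes. The median change was -0.05 in VIN13 and -0.04 in BM45, beside -0.03 and -0.19 for all genes. Without the 4 doubted arrays, 14 were called in VIN13 and 29 in BM45.

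Fewer were called from day 2 to day 5. In VIN13 5 of the 35 were called, 2 higher and 3 lower, where 37.7% of all genes were called, 15.5% higher and 22.2% lower. That count fell to 3 without VIN13 day 2 replicate 1 or replicate 3 and to 2 without VIN13 day 5 replicate 2, and it was 11 without the 4 arrays. In BM45 13 were called, 4 higher and 9 lower, with 56.7% of all genes called, 22.8% higher and 33.9% lower. Without the 4 arrays 20 were called there. The medians were 0.01 in VIN13 and -0.02 in BM45, beside -0.03 and -0.07 over all genes. Arrays of the 2 days did not overlap for 8 genes in VIN13 (46.7% of all genes) and 20 in BM45 (69.8%).

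The balance of higher and lower calls depended on how arrays were scaled. Centring each array on its median gene moved the median change of all genes by 0.15 early and 0.19 late in BM45. The calls were then 4 higher and 2 lower early in VIN13, 9 higher and 6 lower early in BM45, and 14 higher and 10 lower late in BM45. Quantile normalization gave 1 higher and 3 lower early and 6 higher and 6 lower late in VIN13, and 5 higher and 7 lower early in BM45. It moved all genes by 0.15 late in BM45. No called change printed with its adjusted p turned its sign under either scaling. Calls named without an adjusted p are given without their single results under other settings. Among these are the late falls of TIM50, TIM11 and SAM37 in BM45, where median centring left 10 of 15 lower calls in number.

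The largest called difference between the strains' late changes was at a TOM receptor. TOM70, a receptor for carrier precursors that come with cytosolic chaperones, had log2 levels in VIN13 of 11.24, 11.45 and 11.48 on day 2, 11.39, 11.38 and 11.55 on day 5, and 11.35, 11.24 and 11.16 on day 14. The BM45 levels were 11.51 and 10.99 on day 2, 11.31, 11.44 and 11.30 on day 5, and 10.09, 10.09 and 10.07 on day 14. The 3 BM45 day 14 arrays lay below all other arrays, and VIN13 day 14 stayed near the earlier days. The late change of TOM70 was -0.19 ± 0.12 in VIN13 (adjusted p = 0.209) and -1.26 ± 0.12, a 2.40-fold fall, in BM45 (adjusted p = 3.77e-07). On day 14 it was higher in VIN13 by 1.16 ± 0.12 (adjusted p = 2.23e-06), and the late change differed between strains by 1.07 ± 0.17 (adjusted p = 0.000462).

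TOM71, the paralog of TOM70, was also called lower late in BM45, and was called lower there early as well. It stood at 9.97, 9.84 and 10.03 in VIN13 on day 2, 9.47, 9.61 and 9.98 on day 5, and 9.57, 9.63 and 9.34 on day 14. The BM45 arrays had 9.97 and 10.25 on day 2, 9.64, 9.52 and 9.62 on day 5, and 8.86, 8.87 and 8.85 on day 14. In BM45 the 3 days did not overlap and each was below the day before it, while neighbouring days overlapped in VIN13. VIN13 changed by -0.26 ± 0.13 early and -0.18 ± 0.13 late, neither called. In BM45 TOM71 fell by 0.52 ± 0.14 early (adjusted p = 0.00585) and by 0.74 ± 0.13 late (adjusted p = 0.000101). The early call was lost when BM45 day 2 replicate 4 was left out (-0.38, adjusted p = 0.0825), with arrayWeights (adjusted p = 0.0578) and with the ACT1 ratio as a covariate (-0.28, adjusted p = 0.132). Quantile normalization made the late fall in BM45 -0.39 (adjusted p = 0.0155). The late changes differed by 0.56 ± 0.18 (adjusted p = 0.0245), and that call ended without BM45 day 5 replicate 1 or 3, without VIN13 day 5 replicate 1 or 2, or without its day 14 replicate 3 (adjusted p up to 0.0711). Median centring and quantile normalization ended it too.

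Among the other TOM genes, the pore gene TOM40 had 10.77, 10.37 and 10.51 on day 14 and 11.10, 11.09 and 10.99 on day 5 in VIN13. The BM45 values were 10.21, 10.15 and 10.14 on day 14 and 10.96, 11.00 and 11.09 on day 5. Both strains were lower on day 14 with no overlap. The late change was -0.51 ± 0.16 in VIN13 (adjusted p = 0.0206) and -0.85 ± 0.16 in BM45 (adjusted p = 0.000303), and the strains' changes were not called as different (0.34 ± 0.23, adjusted p = 0.274). In VIN13 the call ended without day 5 replicate 1 or 2 or day 14 replicate 3 or 4 (adjusted p up to 0.0869).

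The small TOM proteins, which steady the complex, parted. TOM6 rose late in both strains. Its levels were 12.95, 13.19 and 12.82 on day 14 and 12.54, 12.57 and 12.66 on day 5 in VIN13. BM45 had 13.14, 13.11 and 13.14 on day 14 and 12.66, 12.59 and 12.66 on day 5. The rise was 0.39 ± 0.09 in VIN13 (adjusted p = 0.00354). TOM7 had 12.32, 12.36 and 12.29 on day 14 in VIN13, within its range of 12.22 to 12.53 on day 5. In BM45 it fell late, to 11.88, 11.86 and 11.76 on day 14, against 12.36, 12.37 and 12.53 on day 5, and the late changes were called as different between strains. TOM22, the central receptor, was called higher late in BM45, at 11.36, 11.28 and 11.40 on day 14 against 11.05, 11.05 and 11.17 on day 5, and was not called in VIN13. TOM20, the receptor for presequences, and TOM5, which sits at the pore, were not called in either strain at either step. TOM20 stayed between 10.76 and 11.25 on all 17 arrays, and TOM5 between 10.95 and 11.62. Of the 8 TOM genes 2 were called late in VIN13, 1 higher and 1 lower, and 6 late in BM45, 2 higher and 4 lower. Early, limma called 0 in VIN13, where 0 had an unadjusted p under 0.05, and 1 in BM45, lower. Over all genes, 43.5% and 67.1% were called late and 37.7% and 56.7% early in VIN13 and BM45.

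**Figure D2:**
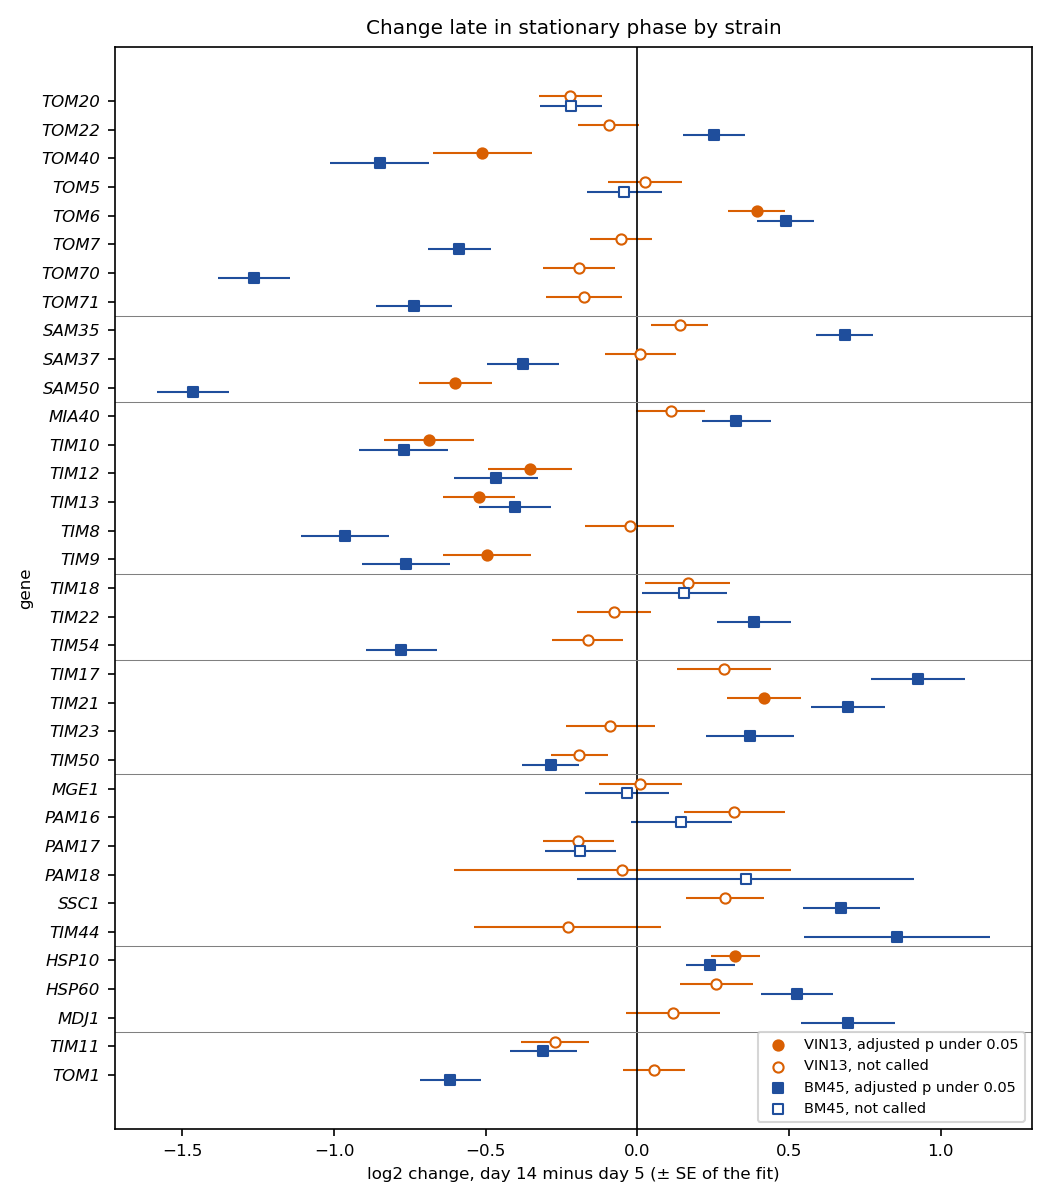
Points give the change from day 5 to day 14 on the log2 scale for each gene, VIN13 as circles and BM45 as squares, with the standard error of the fit as bars. Filled points passed an adjusted p under 0.05. VIN13 shows 9 filled points and BM45 28. TOM70, SAM50 and TIM8 stand at -0.19, -0.60 and -0.03 in VIN13 and at -1.26, -1.47 and -0.96 in BM45.

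SAM50, the barrel protein at the core of the SAM complex, had the largest fall of the 35 genes between neighbouring days. In VIN13 it had 10.05, 9.93 and 10.12 on day 2, 9.60, 9.63 and 10.01 on day 5, and 9.27, 9.12 and 9.05 on day 14. BM45 had 9.94 and 9.81 on day 2, 9.89, 9.53 and 9.69 on day 5, and 8.24, 8.20 and 8.26 on day 14. Day 14 lay below both earlier days in each strain, and BM45 day 14 lay below VIN13 day 14. The late fall was 0.60 ± 0.12 in VIN13, or 1.51-fold (adjusted p = 0.00106), and 1.47 ± 0.12 in BM45, or 2.76-fold (adjusted p = 1.02e-07). The strains' falls differed by 0.87 ± 0.17 (adjusted p = 0.00163, or 0.49 under quantile normalization, adjusted p = 0.0223), and VIN13 was 0.91 ± 0.12 higher on day 14 (adjusted p = 2.05e-05).

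The peripheral partners of SAM50 did not follow one course. SAM35, which binds the sorting signal of barrel proteins, had 10.47, 10.29 and 10.42 on day 2, 10.25, 10.28 and 10.37 on day 5, and 10.62, 10.34 and 10.37 on day 14 in VIN13. BM45 showed 10.21 and 10.09, then 9.72, 9.55 and 9.67, then 10.40, 10.28 and 10.30 on these days. BM45 thus dipped on day 5, below every other array, while VIN13 kept to a narrow range. The dip was called in both steps of BM45, with a late rise of 0.68 ± 0.09 (adjusted p = 1.37e-05). On day 5 VIN13 was 0.66 ± 0.09 higher (adjusted p = 0.000127), and the late changes differed by -0.54 ± 0.13 (adjusted p = 0.00642). SAM37, which helps release finished barrel proteins, had 9.35, 9.62 and 9.32 on day 14 in VIN13, within its day 5 range of 9.29 to 9.65. In BM45 it was called lower late, at 8.78, 8.77 and 8.71 on day 14 against 9.24, 9.06 and 9.09 on day 5. On day 14 VIN13 was 0.67 ± 0.12 higher (adjusted p = 0.000246), with no overlap, and 0.44 higher under quantile normalization (adjusted p = 0.0107).

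The small TIM genes, whose products form the chaperone rings of the intermembrane space, were mostly called lower late. Of the 6 genes for small TIM proteins and MIA40, 2 were called early in VIN13 and 4 in BM45, all lower. Late, 4 were called in VIN13, all lower, and 6 in BM45, 1 higher and 5 lower. Over all genes, 22.2% and 33.9% were called lower early and 24.5% and 43.1% lower late in VIN13 and BM45. All 6 small TIM and MIA40 genes were higher on arrays with a higher ACT1 ratio within groups, by 0.19 to 0.31 per doubling. The mean ratio was lower on day 5 than on day 2 in both strains. With the ratio as a covariate, 1 was called lower early in VIN13, and 3 lower and 1 higher early in BM45, while the late counts were as before. The part of the ratio in the early falls was not tested further. TIM10 is a partner of Tim9 in the main ring. In VIN13 TIM10 had 12.97, 12.56 and 12.52 on day 2, 11.95, 11.98 and 12.30 on day 5, and 11.46, 11.48 and 11.23 on day 14. BM45 arrays had 12.64 and 13.12 on day 2, 11.90, 11.70 and 11.92 on day 5, and 11.13, 11.05 and 11.02 on day 14. In each strain the 3 days were apart without overlap and in falling order. The early fall was 0.61 ± 0.15 in VIN13 (adjusted p = 0.00508) and 1.05 ± 0.17, or 2.06-fold, in BM45 (adjusted p = 9.97e-05). The late fall was 0.69 ± 0.15 in VIN13 (adjusted p = 0.00187) and 0.77 ± 0.15 in BM45 (adjusted p = 0.000296). Neither step was called as different between strains (0.43 ± 0.22 early, adjusted p = 0.233, and 0.09 ± 0.21 late, adjusted p = 0.784). Under the ACT1 covariate the early fall was 0.42 in VIN13 and 0.67 in BM45, both still called.

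TIM9 had 12.36, 11.84 and 11.89 on day 2, 11.85, 11.78 and 12.02 on day 5, and 11.42, 11.53 and 11.22 on day 14 in VIN13. BM45 had 12.01 and 12.35, then 11.83, 11.55 and 11.79, then 11.01, 11.02 and 10.83. The clear step was the late one in both strains, -0.50 ± 0.14 in VIN13 (adjusted p = 0.0126) and -0.76 ± 0.14 in BM45 (adjusted p = 0.000261). The VIN13 call ended without day 14 replicate 4 (adjusted p = 0.0595). The early call in BM45 (-0.46 ± 0.16, adjusted p = 0.0245) ended without BM45 day 2 replicate 4 or day 5 replicate 2 (adjusted p up to 0.236), without the 4 arrays (-0.29, adjusted p = 0.06) and with the ACT1 ratio as a covariate (-0.10, adjusted p = 0.582). Median centring, arrayWeights and fitting only the arrays compared ended it too. On day 14 TIM9 was 0.43 ± 0.14 higher in VIN13 (adjusted p = 0.021), a call that ended without BM45 day 14 replicate 3 or VIN13 day 14 replicate 1 or 3 (adjusted p up to 0.0811), and under median centring.

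TIM8 and TIM13 form the other ring. TIM13 fell at both steps in both strains. Its levels were 10.92, 10.49 and 10.80, then 10.35, 10.30 and 10.48, then 9.99, 9.86 and 9.71 in VIN13. They were 10.98 and 11.16, then 10.28, 10.11 and 10.35, then 9.80, 9.79 and 9.94 in BM45. The days did not overlap in either strain. VIN13 fell by 0.36 ± 0.12 early (adjusted p = 0.025) and by 0.52 ± 0.12 late (adjusted p = 0.00254), and BM45 fell by 0.83 ± 0.13 early (adjusted p = 0.000107) and by 0.40 ± 0.12 late (adjusted p = 0.00697). The early VIN13 call ended without VIN13 day 2 replicate 1 or 3 or day 5 replicate 1 or 2 (adjusted p up to 0.104). Median centring, fitting only the arrays compared and the ACT1 covariate (-0.24, adjusted p = 0.0755) ended it as well. The late BM45 call ended under quantile normalization (-0.23) and median centring (-0.21).

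TIM8 did not share that course. It had 11.42, 11.25 and 11.09 on day 2, 11.15, 11.05 and 11.49 on day 5, and 11.15, 11.36 and 11.12 on day 14 in VIN13, all days overlapping. BM45 arrays had 11.07 and 11.61 on day 2, 11.26, 11.32 and 11.45 on day 5, and 10.46, 10.38 and 10.28 on day 14. The day 14 arrays of BM45 lay below all others. The late change was -0.03 ± 0.15 in VIN13 (adjusted p = 0.903) and -0.96 ± 0.15, a 1.95-fold fall, in BM45 (adjusted p = 3.34e-05). The strains' changes differed by 0.94 ± 0.21 (adjusted p = 0.00324), and on day 14 VIN13 was 0.83 ± 0.15 higher (adjusted p = 0.000253).

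TIM12, the small TIM protein held at the TIM22 complex, differed between strains at the start. VIN13 had 9.78, 9.26 and 9.28 on day 2, 9.36, 9.39 and 9.47 on day 5, and 9.10, 9.15 and 8.91 on day 14. BM45 had 10.01 and 10.42 on day 2, 9.47, 9.26 and 9.27 on day 5, and 8.87, 8.83 and 8.91 on day 14. On day 2 VIN13 lay below BM45 without overlap, by 0.77 ± 0.15 (adjusted p = 0.00192), and by 0.74 without the 4 arrays. The call ended when only the arrays compared were fitted (adjusted p = 0.13). The early change was -0.03 ± 0.14 in VIN13 (adjusted p = 0.879) and -0.88 ± 0.15 in BM45 (adjusted p = 0.000248), and these differed by 0.85 ± 0.21 (adjusted p = 0.0231). With the ACT1 covariate the BM45 change was -0.54 (adjusted p = 0.00445). The difference of the strains' changes was not called when only the arrays compared were fitted (adjusted p = 0.08), nor without any 1 of replicates 2 and 3 of day 2 and replicate 2 of day 5 in VIN13, and replicate 4 of day 2 and replicates 2 and 3 of day 5 in BM45 (adjusted p up to 0.102). Late, TIM12 changed by -0.36 ± 0.14 in VIN13 (adjusted p = 0.0494, lost, with adjusted p up to 0.17, without any 1 of the 12 arrays of days 5 and 14, with a pseudocount of 1 and under both scalings). In BM45 it changed late by -0.47 ± 0.14 (adjusted p = 0.00769, lost under quantile normalization, at -0.13, and under median centring, at -0.28).

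MIA40, the oxidoreductase that traps and folds the small TIM proteins themselves, was called higher late in BM45, where those genes were lower. It had 11.95, 11.82 and 11.76 on day 2, 11.84, 11.81 and 12.23 on day 5, and 12.04, 12.21 and 11.97 on day 14 in VIN13. Its BM45 levels were 11.73 and 11.97, then 12.18, 12.10 and 12.11, then 12.46, 12.46 and 12.45. The days overlapped in VIN13 and were in rising order in BM45. On day 14 it was lower in VIN13 by 0.38 ± 0.11 (adjusted p = 0.0108).

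**Figure D3:**
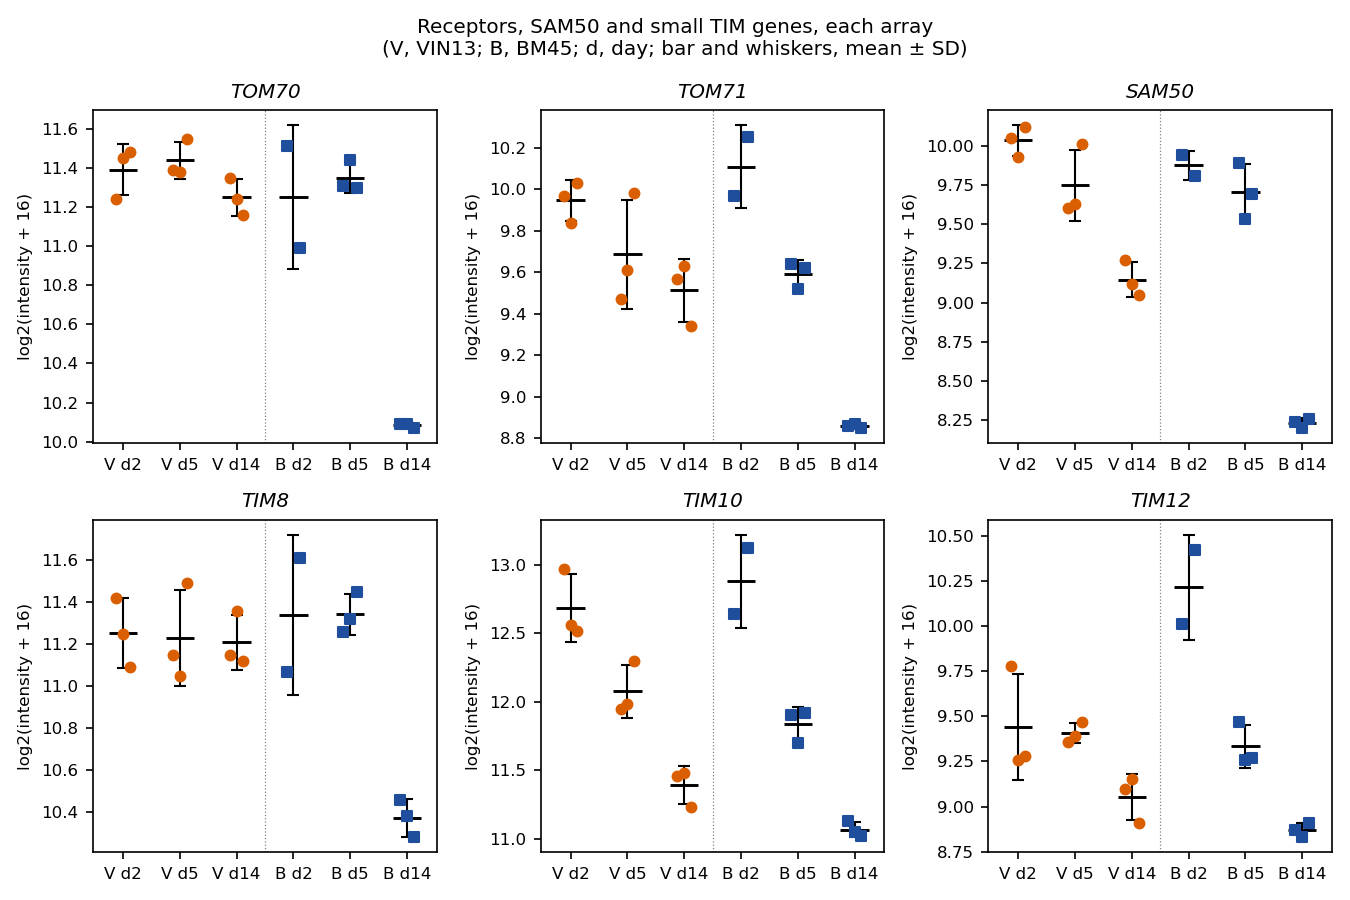
Each panel gives log2(intensity + 16) of 1 gene on every array, VIN13 left (circles) and BM45 right (squares), by day, with bar and whiskers for the mean ± SD. TOM70, TOM71, SAM50 and TIM8 drop on BM45 day 14 below all VIN13 arrays. TIM10 falls day by day in both strains, and TIM12 starts higher in BM45.

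The carrier translocase TIM22 and its partners showed small or single steps. TIM22, the channel itself, had 9.06, 8.83 and 8.81 on day 14 and 9.06, 9.02 and 8.84 on day 5 in VIN13, which overlap. In BM45 it had 9.20, 9.23 and 9.06 on day 14 and 8.83, 8.71 and 8.79 on day 5, called as higher. TIM54, which helps build the complex, had 10.71, 10.45 and 10.51 on day 14 and 10.58, 10.58 and 10.99 on day 5 in VIN13, which overlap. In BM45 it had 10.36, 10.23 and 10.26 on day 14 and 11.05, 11.07 and 11.07 on day 5. TIM54 changed late by -0.16 ± 0.12 in VIN13 (adjusted p = 0.281) and by -0.78 ± 0.12 in BM45 (adjusted p = 3.48e-05), and these differed by 0.61 ± 0.17 (adjusted p = 0.0115). On day 5 VIN13 was lower by 0.34 ± 0.12 (adjusted p = 0.0451), but both scalings, and fitting only the arrays compared, ended that call. So did leaving out any 1 of 11 arrays (adjusted p up to 0.173): the 6 BM45 arrays of days 5 and 14, and of VIN13 replicates 2 and 3 of day 2, replicates 1 and 2 of day 5 and replicate 4 of day 14. TIM18, a further membrane subunit, fell early in both strains and was not called late. It had 10.06, 10.02 and 10.12 on day 5 and 10.57, 10.63 and 10.76 on day 2 in VIN13, without overlap, a fall of 0.58 ± 0.14 (adjusted p = 0.00482). In BM45 it was called lower early, at 9.94, 9.97 and 10.00 on day 5 against 10.69 and 10.10 on day 2.

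Of the 4 genes of the presequence translocase TIM23, 1 was called late in VIN13, higher, and all 4 in BM45, 3 higher and 1 lower. The late shares of all genes were 43.5% in VIN13, 19.0% higher, and 67.1% in BM45, 23.9% higher. TIM17, the channel subunit, had 11.25, 11.71 and 11.82 on day 2, 11.72, 11.65 and 11.69 on day 5, and 12.14, 11.92 and 11.87 on day 14 in VIN13. BM45 had 12.14 and 11.51, then 11.58, 11.54 and 11.62, then 12.51, 12.46 and 12.55. Both strains had day 14 above day 5, and BM45 day 14 was the highest group. The late change was 0.29 ± 0.15 in VIN13 (adjusted p = 0.151) and 0.93 ± 0.15, a 1.90-fold rise, in BM45 (adjusted p = 8.48e-05). They differed by -0.64 ± 0.22 (adjusted p = 0.0349), but that call ended without any 1 of 11 arrays, all of days 5 and 14 other than VIN13 day 14 replicate 1 (adjusted p up to 0.0767). On day 14 TIM17 was lower in VIN13 by 0.53 ± 0.15 (adjusted p = 0.00925).

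TIM21, which links TIM23 to the TOM complex and to respiratory complexes, rose late in both strains and was lower in VIN13 from day 5 on. Its levels were 10.43, 10.63 and 10.72 on day 2, 10.40, 10.47 and 10.83 on day 5, and 10.93, 11.10 and 10.92 on day 14 in VIN13. They were 10.81 and 10.48, then 11.20, 11.19 and 11.19, then 11.85, 11.84 and 11.97 in BM45. The strains overlapped on day 2 and were apart on days 5 and 14. VIN13 was lower by 0.62 ± 0.12 on day 5 (adjusted p = 0.00165) and by 0.90 ± 0.12 on day 14 (adjusted p = 2.54e-05). The early change was -0.03 ± 0.12 in VIN13 and 0.54 ± 0.14 in BM45 (adjusted p = 0.00353, and 0.0662 without BM45 day 2 replicate 4), and the difference of the 2 was not called (-0.57 ± 0.18, adjusted p = 0.066). The late rise was 0.42 ± 0.12 in VIN13 (adjusted p = 0.0126, lost without VIN13 day 5 replicate 1 or 2 or day 14 replicate 3, up to 0.062) and 0.69 ± 0.12 in BM45 (adjusted p = 0.000132).

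TIM23, the partner of Tim17 in the channel, dipped on day 5 in BM45. In VIN13 it ranged from 9.98 to 10.66 over the days and was not called. The BM45 arrays had 10.82 and 10.60 on day 2, 10.22, 10.05 and 10.18 on day 5, and 10.49, 10.52 and 10.55 on day 14, called at both steps. The early fall was 0.56 ± 0.16 (adjusted p = 0.00898, and 0.0681 when BM45 day 2 replicate 2 was left out). With the ACT1 covariate it was -0.92 (adjusted p = 0.000102). TIM50, the receptor of the complex, had 9.50, 9.20 and 9.39, then 9.13, 9.17 and 9.21, then 9.03, 8.82 and 9.08 in VIN13, with no call. It was called lower at both steps in BM45, with 9.46 and 9.28, then 9.01, 9.01 and 8.96, then 8.70, 8.74 and 8.69.

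**Figure D4:**
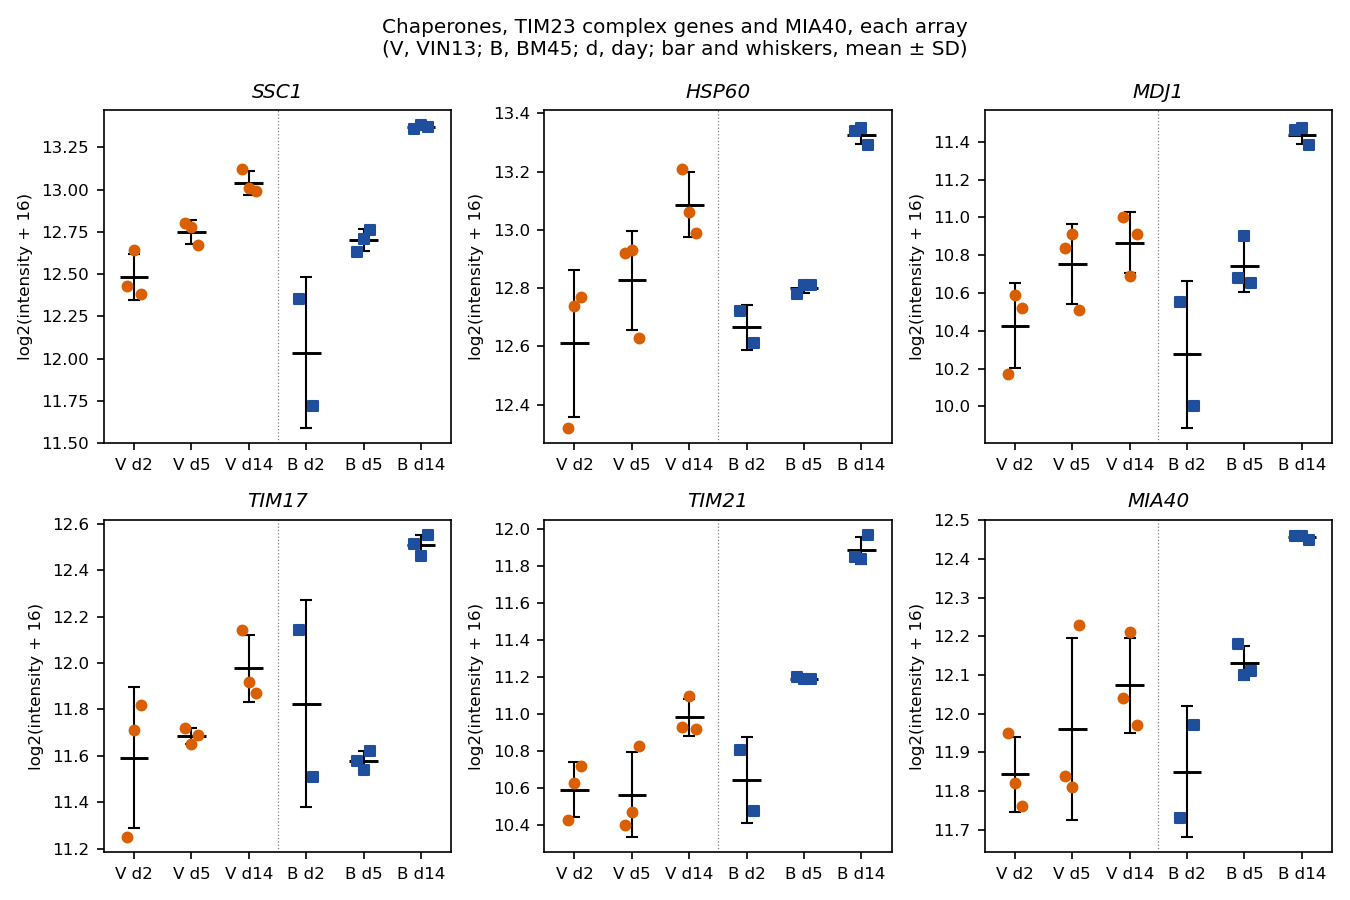
Each panel gives log2(intensity + 16) of 1 gene on every array, VIN13 left (circles) and BM45 right (squares), by day, with bar and whiskers for the mean ± SD. In all 6 panels the BM45 day 14 arrays lie above every other array, and TIM21 is already higher in BM45 on day 5.

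Some chaperone genes of the matrix, but not all, rose late. Of the 3 folding genes HSP60, HSP10 and MDJ1, 1 was called late in VIN13 and all 3 in BM45, each higher. SSC1 was called higher late in BM45. Of 9 other matrix chaperones and import accessories, 3 were called late in VIN13, all lower, and 8 in BM45, 3 higher and 5 lower. Over all genes, 19.0% were called higher and 24.5% lower late in VIN13. In BM45 23.9% were called higher and 43.1% lower. SSC1, the mitochondrial Hsp70 that drives import and folds what enters, had 12.43, 12.64 and 12.38 on day 2, 12.80, 12.78 and 12.67 on day 5, and 13.12, 13.01 and 12.99 on day 14 in VIN13. BM45 had 12.35 and 11.72, then 12.63, 12.71 and 12.76, then 13.36, 13.38 and 13.37. The days were in rising order in both strains without overlap. In VIN13 the changes were 0.27 ± 0.13 early (adjusted p = 0.115) and 0.29 ± 0.13 late (adjusted p = 0.0804). BM45 rose by 0.67 ± 0.14 early (adjusted p = 0.00119) and by 0.67 ± 0.13 late (adjusted p = 0.000271). Neither step was called as different between strains (adjusted p = 0.202 early and 0.113 late). Without the 4 arrays the early change was 0.28 in VIN13 and 0.35 in BM45. SSC1 was 0.45 ± 0.14 higher in VIN13 on day 2 (adjusted p = 0.0266), but only 0.16 without the 4 arrays (adjusted p = 0.261), and the call ended without BM45 day 2 replicate 4 or VIN13 day 2 replicate 2 (adjusted p up to 0.442), with arrayWeights and with only the arrays compared. On day 14 it was lower in VIN13 by 0.33 ± 0.13 (adjusted p = 0.0397), a call that ended with the ACT1 covariate (-0.23, adjusted p = 0.0628). It also ended without any 1 of 7 arrays (adjusted p up to 0.102): the 3 of BM45 day 14, replicate 2 of day 5 in either strain, and replicates 3 and 4 of day 14 in VIN13.

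HSP60, the chaperonin barrel of the matrix, had 12.32, 12.74 and 12.77 on day 2, 12.92, 12.93 and 12.63 on day 5, and 13.21, 13.06 and 12.99 on day 14 in VIN13. Its BM45 levels were 12.72 and 12.61, then 12.78, 12.81 and 12.81, then 13.34, 13.35 and 13.29. Day 14 was the highest day in each strain. The late change was 0.26 ± 0.12 in VIN13 (adjusted p = 0.0905) and 0.53 ± 0.12 in BM45 (adjusted p = 0.00117), with no call of a difference between them (adjusted p = 0.238). HSP10, the lid of that barrel, rose late in both strains. It had 13.60, 13.68 and 13.63 on day 14 and 13.26, 13.30 and 13.39 on day 5 in VIN13, a rise of 0.32 ± 0.08 (adjusted p = 0.00518). In BM45 it had 13.63, 13.64 and 13.60 on day 14 and 13.45, 13.37 and 13.32 on day 5, a rise of 0.24 ± 0.08 (adjusted p = 0.0165, and 0.0667 without BM45 day 5 replicate 3), or 0.43 under median centring.

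MDJ1, the J protein that feeds substrates to Ssc1 for folding, had 10.17, 10.59 and 10.52 on day 2, 10.84, 10.91 and 10.51 on day 5, and 11.00, 10.69 and 10.91 on day 14 in VIN13. Its BM45 levels were 10.55 and 10.00, then 10.68, 10.90 and 10.65, then 11.46, 11.47 and 11.38. The BM45 day 14 arrays lay above all others. MDJ1 changed late by 0.12 ± 0.15 in VIN13 (adjusted p = 0.561) and by 0.69 ± 0.15 in BM45 (adjusted p = 0.00101), and the difference of the changes was -0.57 ± 0.22 (adjusted p = 0.0541). Without the 4 arrays that difference was -0.61. VIN13 was lower on day 14 by 0.57 ± 0.15 (adjusted p = 0.00627). The early call in BM45 (0.46 ± 0.17, adjusted p = 0.0327) did not hold without the 4 arrays (0.19, adjusted p = 0.136), nor without BM45 day 2 replicate 4 or day 5 replicate 2 (adjusted p up to 0.432), nor with the ACT1 covariate (0.04, adjusted p = 0.838), arrayWeights or only the arrays compared. MGE1, the nucleotide exchange factor of Ssc1, was the member of the Hsp70 system that was not called in any comparison. It ranged from 11.40 to 12.01 in VIN13 and from 11.31 to 11.80 in BM45, with late changes of 0.01 ± 0.14 in VIN13 and -0.03 ± 0.14 in BM45.

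The other motor genes were mostly not called. PAM16 and PAM17, which regulate and hold the motor, stayed between 9.87 and 10.71 and between 10.86 and 11.39 on the 17 arrays. TIM44, which anchors Ssc1 at the channel, and PAM18, the J protein of the motor, spread far more between arrays of a group. For TIM44 the levels in VIN13 were 8.22, 9.00 and 8.91 on day 2, 9.08, 9.20 and 8.26 on day 5, and 9.18, 8.14 and 8.54 on day 14. BM45 had 9.42 and 8.40, then 8.78, 9.06 and 8.93, then 9.74, 9.83 and 9.77. The BM45 day 14 arrays were above all others, and the VIN13 days overlapped. The late change was -0.23 ± 0.31 in VIN13 (adjusted p = 0.572) and 0.86 ± 0.31 in BM45 (adjusted p = 0.0228), and the BM45 call was lost when its day 5 replicate 1 or day 14 replicate 2 was left out (adjusted p up to 0.0702). The difference of these changes was -1.09 ± 0.43 (adjusted p = 0.0662), and -1.14 without the 4 arrays. On day 14 VIN13 was lower by 1.16 ± 0.31, or 2.24-fold (adjusted p = 0.00533), and by 0.92 without the 4 arrays.

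PAM18 is described because of its spread, and was chosen for this after its values were seen. It had 6.81, 9.27 and 8.14 on day 2, 9.90, 9.97 and 8.16 on day 5, and 9.85, 8.54 and 9.49 on day 14 in VIN13. BM45 had 9.32 and 8.19, then 9.56, 9.61 and 9.62, then 9.82, 10.03 and 10.01. The value of 6.81, in VIN13 day 2 replicate 1, was under the background bound of 6.87. Low values stood on the arrays with a high ACT1 ratio: within groups PAM18 was lower by 1.48 on the log2 scale for each doubling of the ratio (a slope of -1.48), and TIM44 had a slope of -0.74. The 35 genes had a median slope of 0.03, with 16 below 0, and all genes a median of -0.05. PAM18 was not called in any comparison (early change 1.27 ± 0.56 in VIN13, adjusted p = 0.0841, and 0.84 ± 0.62 in BM45, adjusted p = 0.258). Without the 4 arrays the early rise in VIN13 was 1.23, and with the ACT1 ratio as a covariate it was 0.37 (adjusted p = 0.167). With that covariate the early change of PAM18 in BM45 turned negative and was called. TIM44 had with that covariate an early change of -0.88 in BM45 (adjusted p = 0.00563), beside 0.02 without it. The late rise of TIM44 in BM45 stayed at 0.79 with the covariate (adjusted p = 0.000344). Whether the ratio accounts for these values was not tested.

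**Figure D5:**
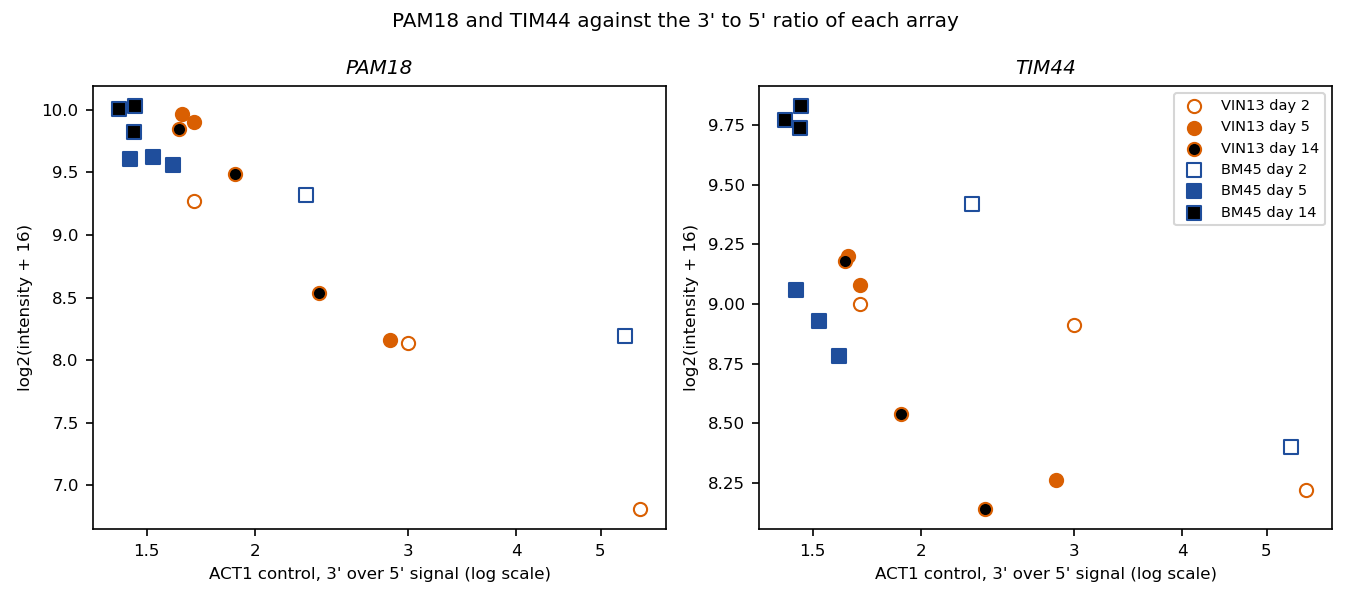
The level of PAM18 (left) and TIM44 (right), as log2(intensity + 16), is drawn against the 3' to 5' signal ratio of the ACT1 control on a log axis, 1 point per array. Circles are VIN13 and squares BM45, with open, filled and black-centred points for days 2, 5 and 14. PAM18 is lowest, at 6.81, on the array with the highest ratio, 5.55, and TIM44 is highest on the 3 BM45 day 14 arrays.

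The pair of genes with another role were both called early in VIN13 and late in BM45. TOM1 rose early in both strains, by 0.30 ± 0.10 in VIN13 (adjusted p = 0.0318) and by 0.41 ± 0.11 in BM45 (adjusted p = 0.0065). On day 14 it had 11.65, 11.66 and 11.75 in VIN13 and 11.01, 11.11 and 10.91 in BM45, a difference of 0.68 ± 0.10 (adjusted p = 6.23e-05) with no overlap. Its late change was called lower in BM45, and the strains' late changes differed by 0.67 ± 0.14 (adjusted p = 0.00275). The early VIN13 call ended without VIN13 day 2 replicate 1 or day 5 replicate 2 or 3 (adjusted p up to 0.129), and without the 4 arrays. Quantile normalization, fitting only the arrays compared and the ACT1 covariate (adjusted p = 0.0532) ended it too. The early BM45 call was lost when its day 2 replicate 2 was left out (adjusted p = 0.0785) and with arrayWeights (adjusted p = 0.118). TIM11 rose early in VIN13 by 0.35 ± 0.11 (adjusted p = 0.0234, and up to 0.0759 without VIN13 day 2 replicate 3 or day 5 replicate 2 or 3). That call ended under quantile normalization (adjusted p = 0.08) and with only the arrays compared (adjusted p = 0.0561). TIM11 was called lower late in BM45, at 11.96, 11.93 and 11.86 on day 14 against 12.16, 12.24 and 12.27 on day 5.

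Between strains the 35 genes were close on day 2. VIN13 was higher for 1 and lower for 1 (SSC1 and TIM12), where 31.2% of all genes were called, 7.95% higher and 23.3% lower. The median difference was -0.06, beside -0.13 over all genes. Arrays of the strains did not overlap for 8 of the 35 genes and for 42.1% of all genes. That count of calls was 7 without BM45 day 2 replicate 2, 5 without VIN13 day 2 replicate 1, 1 without VIN13 day 2 replicate 2 and 5 without the 4 arrays. Median centring moved all genes by 0.17 and gave 7 higher and 1 lower, and quantile normalization gave 5 higher and 1 lower.

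On day 5 VIN13 was higher for 1 gene (SAM35) and lower for 2 (TIM21 and TIM54), where 25.2% of all genes were called, 9.89% higher and 15.3% lower. The median difference was 0.05, beside -0.07 over all genes. The strains did not overlap for 11 of the 35 genes, beside 52.0% of all genes. The calls were 4 higher and 5 lower without the 4 arrays, 4 higher and 1 lower with quantile normalization, and 3 higher and 1 lower with median centring.

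On day 14 VIN13 was higher for 9 and lower for 6, where 53.5% of all genes were called, 32.4% higher and 21.1% lower. The strains did not overlap for 23 of the 35 genes, beside 69.7% of all genes. The 9 were TOM70, TOM71, TOM7, SAM50, SAM37, TIM8, TIM9, TIM50 and TOM1, and the 6 were TIM44, TIM21, TIM17, MIA40, SSC1 and MDJ1. By role, VIN13 was higher for 3 and lower for 0 of the 8 TOM genes (4 had an unadjusted p under 0.05), higher for 2 of the 3 SAM genes, and higher for 2 and lower for 1 of the 6 small TIM and MIA40 genes. It was higher for 1 and lower for 2 of the 4 TIM23 genes, and lower for 2 of the 6 motor genes and 1 of the 3 folding genes. Median centring gave 7 higher and 11 lower.

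The difference of the strains' changes was called for 1 of the 35 genes early (TIM12), where 8.66% of all genes were called, 6.53% higher and 2.13% lower, and for 9 late, where 34.2% of all genes were called, 23.8% higher and 10.3% lower. The late 9 were 7 with the larger fall in BM45 (TOM70, TOM71, TOM7, SAM50, TIM8, TIM54 and TOM1) and 2 with the larger rise in BM45 (SAM35 and TIM17). The late count was 18 without the 4 arrays, 9 in each direction, and 14 without either BM45 day 2 array. The early count was 0 without BM45 day 2 replicate 4, without VIN13 day 2 replicate 2 or 3, without BM45 day 5 replicate 2 or 3 or without VIN13 day 5 replicate 2. It was 2 without VIN13 day 5 replicate 3, 4 without VIN13 day 2 replicate 1, 5 without BM45 day 2 replicate 2 and 7 without the 4 arrays. Early scaling alternatives gave 1 higher and 1 lower each. Late, median centring gave 5 higher and 10 lower and quantile normalization 6 and 6, with all genes moved by -0.19 and -0.11.

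By course, 23 of the 35 genes in VIN13 and 6 in BM45 were called at neither step. The early and late steps were called for 37.7% and 43.5% of all genes in VIN13, and for 56.7% and 67.1% in BM45. The share of all genes with each course was not counted, so the counts by course only describe the 35 genes. The 6 in BM45 were TOM20, TOM5, MGE1, PAM16, PAM17 and PAM18. In BM45 6 genes were called lower at both steps (TIM50, TOM71, TIM9, TIM10, TIM12 and TIM13), 3 higher at both (TIM21, MDJ1 and SSC1) and 8 higher only at the late step by this threshold. In VIN13 TIM10 and TIM13 were called lower at both steps, and none was called higher at both.

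Genes acting next to these were taken from lists of 52 genes in all. After import, presequences are cut off and broken down. Late in stationary phase 4 of 9 genes of that list were called in VIN13, all lower, with a median of -0.37, and 6 of 9 in BM45, all lower, with a median of -0.84. Of all genes 43.5% were called late in VIN13, 24.5% lower, and 67.1% late in BM45, 43.1% lower. The counts of calls in either direction were near the shares in either direction, while the lower calls lay above the lower shares. The medians over all genes were -0.03 in VIN13 and -0.19 in BM45. Whether this list of 9 genes departs from all genes was not tested. MAS2, a subunit of the main processing peptidase, fell late in VIN13 by 1.08 ± 0.24 (adjusted p = 0.00233). OCT1, the intermediate peptidase of the matrix, fell late in BM45 by 1.55 ± 0.22 (adjusted p = 1.99e-05). On day 14 OCT1 was 1.21 ± 0.22 higher in VIN13 (adjusted p = 0.000375), and the late changes differed by 1.56 ± 0.31 (adjusted p = 0.00193). Early, 1 was called higher and 2 lower of the 9 in VIN13 and 1 higher and 1 lower in BM45. The early shares of all genes were 37.7% in VIN13 and 56.7% in BM45.

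In the list for outer membrane insertion and intermembrane space oxidation, 4 of 9 were called early in VIN13 (2 higher and 2 lower). In BM45 8 were called early (4 higher and 4 lower). The shares of all genes called early were 37.7% in VIN13 and 56.7% in BM45. OM45, an outer membrane protein abundant in respiring cells, rose early by 1.41 ± 0.19 in VIN13 (adjusted p = 6.14e-05) and by 1.85 ± 0.22 in BM45 (adjusted p = 6.54e-06). MDM10, which joins the SAM complex, fell early in BM45 by 1.49 ± 0.15 (adjusted p = 1.66e-06). OM14, a further outer membrane protein, fell late in VIN13 by 0.81 ± 0.12 (adjusted p = 0.000154). HOT13, a zinc-binding partner of Mia40, was 0.75 ± 0.11 higher in VIN13 on day 5 (adjusted p = 0.000195).

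Over all 52 neighbours 17 were called late in VIN13, 3 higher and 14 lower, and 28 late in BM45, 9 higher and 19 lower. Early, 17 were called in VIN13, 10 higher and 7 lower, and 29 in BM45, 15 higher and 14 lower. The shares of all genes called were 43.5% and 67.1% late and 37.7% and 56.7% early in VIN13 and BM45. None of the counts of the 52 in either direction stood above these shares. By direction, the lower calls late in VIN13 were slightly above the share of all genes, 24.5%. The higher calls early were somewhat above it in VIN13 (15.5%) and BM45 (22.8%). The other counts by direction were below theirs, and none was tested. The import and chaperone genes and these neighbours can be set beside the genes for what is imported. Of 39 respiratory chain and ATP synthase genes, 19 were called higher and 2 lower early in VIN13 (median 0.31) and 20 higher and 3 lower early in BM45 (median 0.28), where the 35 genes had 2 higher and 3 lower, and 4 higher and 9 lower. Of 68 mitochondrial ribosomal protein genes, 16 were called higher and limma called 0 lower early in VIN13 (23 had an unadjusted p under 0.05 in either direction), with 14 higher and 14 lower early in BM45. Late, the respiratory genes had 5 higher and 7 lower in VIN13 and 4 higher and 12 lower in BM45, and the ribosomal genes 9 higher and 14 lower in VIN13 and 12 higher and 29 lower in BM45. These counts were not tested against each other.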

How the data were processed

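Total RNA of 17 samples (strains VIN13 and BM45, 3 days) was hybridised to Affymetrix yeast arrays. The deposited values are linear intensities, 1 per probe set, which the authors made with Affymetrix Expression Console, per the submitters' processing notes. Its version and its summarisation and background settings were not given in the sources used here. Annotation tied 5498 of 10928 probe sets to 5449 S. cerevisiae genes; for 47 genes with several probe sets the brightest was used, and each of the 35 genes had 1. No genome build is named, so no positions are given.

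Values were taken as log2(intensity + 16) without further normalization or filter. A mean per strain and day was fitted over all 17 arrays with limma 3.58.1 (R 4.3.3), lmFit and eBayes, two-sided, adjusted by Benjamini and Hochberg over 5449 genes; the code was tested on simulated data. The background bound was 6.87, the 95th percentile of 1746 S. pombe probe sets averaged over arrays. Statistics were printed for up to 5 increases and 5 decreases among called genes of a comparison, for TOM70 and TOM71, the small TIM genes and the Hsp60 and Hsp70 systems, and for up to 3 neighbours. The genes, lists and the 4 arrays were chosen with earlier results of these data known. Alternatives were other pseudocounts (1 and 64), quantile normalization, median centring, the mean over probe sets, dim genes left out, eBayes with trend, arrayWeights, only the arrays compared, a replicate block, the ACT1 covariate and arrays left out. Where that left BM45 day 2 with 1 array, its spread was assumed to be that of the other groups. Figures used Python 3.11.15 and matplotlib 3.10.9.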

Additional observations from a re-analysis of the deposited data

Results flagged for a closer look

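In 10 results the change over time differed between the strains by limma's test of the difference itself, VIN13 minus BM45. Early, from day 2 to day 5, TIM12 differed by 0.85. Late, from day 5 to day 14, TOM70 differed by 1.07, TIM8 by 0.94, SAM50 by 0.87, TOM1 by 0.67, TIM54 by 0.61, TOM71 by 0.56 and TOM7 by 0.53, each with the larger fall in BM45. SAM35 differed by -0.54 and TIM17 by -0.64, with the larger rise in BM45. Of these, TIM12, TOM71 and TIM17 lost the call without some single arrays, as given with their values. TOM7 was not among the changes followed singly, so whether its call holds without single arrays or under other settings is not given here. No group had the 4 arrays needed to look for a single array far from the others.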

How the results depend on the processing

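Counts of called genes among the 35 moved by over 1.5 times in these settings. The shares of all genes called were not counted under them. Whether the 35 genes moved more than all genes was therefore not tested. Early in VIN13 (5), arrayWeights gave 11, only the arrays compared 2 and leaving out the 4 arrays 11. Early in BM45 (13) arrayWeights gave 7 and leaving out the 4 arrays 20. Late in VIN13 (9) arrayWeights gave 15, leaving out the 4 arrays 14 and the ACT1 covariate 14. Between strains on day 2 (2), quantile normalization gave 6, median centring 8, arrayWeights 1, only the arrays compared 0, leaving out the 4 arrays 5 and the ACT1 covariate 7. On day 5 (3) the counts were 5 with quantile normalization, 11 with arrayWeights, 9 without the 4 arrays and 6 with the covariate, and on day 14 (15) arrayWeights gave 23. For the early difference of changes (1), both scalings and arrayWeights gave 2, only the arrays compared 0, leaving out the 4 arrays 7 and the covariate 3. For the late one (9), the counts were 15 with median centring, 18 with arrayWeights, 15 with only the arrays compared, 18 without the 4 arrays and 16 with the covariate. Late in BM45 (28) no setting moved the count by that much. With 1 array left out in turn, counts ranged from 2 to 7 early and 6 to 11 late in VIN13, 10 to 15 early and 24 to 29 late in BM45, 1 to 7, 2 to 4 and 12 to 19 between strains on days 2, 5 and 14, and 0 to 5 and 7 to 14 for the early and late differences of changes. The replicate block gave 5 and 10 in VIN13, 15 and 28 in BM45, 2, 3 and 14 between strains, and 1 and 8 for the differences. The labels do not say whether replicate numbers pair the samples. Of 31 same-numbered pairs, 15 had deviations correlated above 0.1 (median 0.02, beside -0.02 in pairs of other numbers). With 2 or 3 arrays a group these correlations cannot settle it. The block ended the calls of TOM40 late in VIN13 (-0.37), TIM17 for the late difference of changes (-0.51) and SSC1 between strains on day 2 (0.34) and day 14 (-0.20).

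Of the single named changes 1 turned round: PAM18 early in BM45 was -0.93 with the ACT1 covariate (adjusted p = 0.01), from an uncalled 0.84, and the cause was not tested. Over 176 named changes, leaving out 1 array ended or missed a call 92 times, made 27 and left 2873 the same; other settings ended 52, made 56 and left 2003 the same.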

Other observations

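Cytosolic chaperones that bring precursors to mitochondria moved in both directions. SSA3, a stress-induced Hsp70, rose early by 1.86 ± 0.19 in VIN13 (adjusted p = 5.34e-06) and by 2.18 ± 0.22 in BM45 (adjusted p = 1.61e-06), and on day 14 it was lower in VIN13 by 1.06 ± 0.19 (adjusted p = 0.000361). SSA4 was lower in VIN13 on day 5 by 0.82 ± 0.12 (adjusted p = 0.000173), and its early change differed between strains by -0.89 ± 0.18 (adjusted p = 0.00921). YDJ1, an Hsp40 that works with these Hsp70 proteins, rose late in BM45 by 1.67 ± 0.10 (adjusted p = 7.5e-09), was higher in VIN13 on day 5 by 0.78 ± 0.10 (adjusted p = 2.81e-05), and its late changes differed by -0.89 ± 0.13 (adjusted p = 0.00036). EGD2, a subunit of the complex that meets nascent chains, fell late in VIN13 by 0.79 ± 0.09 (adjusted p = 1.23e-05). Of the 9 genes of this list 3 were called early in VIN13 and 7 in BM45, and 5 late in VIN13 and 7 in BM45. Over all genes, 37.7% and 56.7% were called early and 43.5% and 67.1% late in VIN13 and BM45.

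Inside mitochondria, ECM10, a close relative of SSC1 whose probes may share signal with it, rose late in BM45 by 1.57 ± 0.16 (adjusted p = 8.09e-07). On day 14 it was lower in VIN13 by 1.15 ± 0.16 (adjusted p = 3.52e-05), and the late changes differed by -1.43 ± 0.23 (adjusted p = 0.000506). HSP78, which frees aggregated matrix proteins, was 1.21 ± 0.22 higher in VIN13 on day 2 (adjusted p = 0.000883). The difference of HSP78 was 0.66 when replicate 4 of BM45 day 2 was left out and 0.75 when all 4 doubted arrays were. It was not called when only the arrays compared were fitted (adjusted p = 0.115). Of the 9 other matrix chaperones and import accessories limma called 0 early in VIN13 (2 had an unadjusted p under 0.05) and 3 in BM45, and late 3 in VIN13, all lower, and 8 in BM45, 3 higher and 5 lower. OMA1, an inner membrane protease, fell early in VIN13 by 1.34 ± 0.11 (adjusted p = 3.4e-07). ATP23, a protease of the intermembrane space, was lower in VIN13 on day 2 by 0.78 ± 0.10 (adjusted p = 6.08e-05, and 0.0662 when only the arrays compared were fitted), and its early changes differed by 0.89 ± 0.13 (adjusted p = 0.00184). Among the 11 quality control proteases and prohibitins 5 were called early in VIN13 and 7 in BM45, and 1 late in VIN13 and 3 in BM45. Of the 5 genes for inner membrane insertion, 2 were called early in each strain, both higher. Late, limma called 0 of the 5, with 0 at an unadjusted p under 0.05 in either strain. The counts of these lists stand beside 37.7% and 56.7% of all genes called early in VIN13 and BM45. The late shares were 43.5% and 67.1%.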
